A study of Mus musculus with 22 samples.

Results

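The death ligands of natural killer (NK) cells and the receptors they bind were followed as 9 genes: the ligands Fasl, Tnfsf10, Tnf, Lta and Ltb, and the receptors Fas, Tnfrsf10b, Tnfrsf1a and Tnfrsf1b. They were chosen by symbol, with earlier results of these data known, and all 9 were found among the 78298 genes counted. NK cells kill tumour cells by releasing granules and also by presenting ligands of the tumour necrosis factor (TNF) superfamily. Fas ligand (Fasl) binds Fas, and TRAIL (Tnfsf10) binds its only death-inducing receptor in the mouse, Tnfrsf10b. Both receptors carry a death domain that recruits Fadd and caspase-8. TNF and lymphotoxin alpha (Lta) bind Tnfrsf1a, which has a death domain but mainly activates NF-kappaB, and Tnfrsf1b, which has none. Lymphotoxin beta (Ltb) joins lymphotoxin alpha in a membrane complex that binds another receptor, Ltbr.

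The study asks whether NK cells of female and male mice differ in their action on pancreatic cancer. Polyadenylated RNA of 22 libraries was sequenced. NK cells positively sorted from spleens of female or male donors were sequenced untreated, and NK cells were also kept for 24 h with the cytokine interleukin-2 (IL-2), either alone (called cultured NK cells) or together with Panc02, a pancreatic cancer cell line of the mouse. Each of these 6 groups had 2 libraries, numbered 1 and 2 (female) and 4 and 5 (male). Panc02 cells cultured alone gave 2 libraries, and Panc02 tumours grown in mice (allografts) gave 4 from female hosts (1 to 4) and 4 from male hosts (5 to 8). No culture time is recorded for Panc02 cultured alone, and whether it received IL-2 is not stated here. Time and medium may thus differ between it and the co-cultures, and their part was not tested. The labels give no strain, age or genotype of the mice and leave unsaid if NK and Panc02 cells of a co-culture were separated before extraction. Nor do they state that each library came from its own animal or culture, so p-values here reflect only how far these libraries differ from each other, which may be technical.

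Libraries held 13025549 to 46842646 counts over all genes, with 14676 to 21333 genes at 10 counts or more. Fresh NK RNA was taken on oligo(dT) beads and all other RNA with a phenol reagent, so culture and extraction cannot be told apart. A summed list of 6 NK marker genes stood at 6223 to 7223 CPM (counts scaled to a common library total) in fresh and 6570 to 7439 in cultured NK libraries. In cultured Panc02 it stood at 17.7 to 19.7 CPM, nearly all of it Eomes, while Ncr1, Klrb1c, Prf1 and Gzma were at 0. A list of 4 epithelial genes stood at 2796 and 2825 CPM in cultured Panc02 and 614 to 1540 in allografts, and 3 skeletal muscle genes ranged from 485.9 to 19520 CPM among allografts. In bulk libraries, fewer cells of a type and less RNA per cell cannot be told apart.

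Of the ligands, Ltb (17, 35413415 to 35415296), Tnf (35418357 to 35420983) and Lta (35422141 to 35424327) are neighbours on chromosome 17 of the build GRCm39. They lie 3060 and 1157 bases apart, within 10913 bases. Fasl lies on chromosome 1 (161608258 to 161616064) and Tnfsf10 on chromosome 3 (27371177 to 27396576). Annotated genes that overlap a member had at most 18 counts in any library. These 3 neighbours were higher in every cultured than in every fresh NK library in CPM, as were Fasl, Tnfsf10, Tnfrsf10b and Tnfrsf1b. The share of all genes separated in this way is not given here, and 22.1% of all genes tested were called higher in culture. For the 3 neighbours alone, the 250 bases before their start sites are printed here. They are from RefSeq in the build GRCm38.p6, which is not the build of the counts. Capitals mark matches to 4 searched motifs. The Tnf stretch is chr17:35202008-35202257 (minus strand), that of Lta is chr17:35205352-35205601 (minus strand) and that of Ltb is chr17:35194257-35194506 (plus strand).
Tnf: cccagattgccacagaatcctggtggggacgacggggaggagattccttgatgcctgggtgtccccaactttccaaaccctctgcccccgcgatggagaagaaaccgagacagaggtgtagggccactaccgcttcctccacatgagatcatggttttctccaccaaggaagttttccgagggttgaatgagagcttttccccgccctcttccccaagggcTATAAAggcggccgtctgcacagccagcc
Lta: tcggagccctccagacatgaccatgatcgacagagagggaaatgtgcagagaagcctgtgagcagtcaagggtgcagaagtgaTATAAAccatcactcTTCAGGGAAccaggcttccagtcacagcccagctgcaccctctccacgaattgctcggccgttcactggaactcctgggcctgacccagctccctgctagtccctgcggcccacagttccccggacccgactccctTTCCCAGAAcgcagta
Ltb: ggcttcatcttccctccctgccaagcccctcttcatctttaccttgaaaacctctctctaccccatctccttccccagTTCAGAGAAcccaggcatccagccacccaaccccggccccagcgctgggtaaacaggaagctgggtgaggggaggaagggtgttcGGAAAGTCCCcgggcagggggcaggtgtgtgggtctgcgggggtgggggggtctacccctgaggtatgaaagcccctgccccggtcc

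The motifs, searched on both strands, were the kappaB motif bound by NF-kappaB, TTCNNNGAA (the form bound by STAT factors, which act below the IL-2 receptor), TGANTCA (AP-1) and TATAAA. None of the marked matches overlap. Tnf held a TATAAA match 29 to 24 bases before its start. Lta held TTCNNNGAA at 152 to 144 and at 16 to 8 bases before the start, and TATAAA at 167 to 162. Ltb held the kappaB motif at 87 to 78 and TTCNNNGAA at 172 to 164. Of 32851 promoter stretches of the same length, 7.25% held the kappaB motif, 7.02% TTCNNNGAA, 6.75% TGANTCA and 12.4% TATAAA. Among the other members, Fas, Tnfrsf1a and Tnfrsf1b each held 1 TTCNNNGAA match, Fas also held TGANTCA, and Fasl and Tnfsf10 held none of the 4. Such a match is a description of letters and not of binding. No stretch was used for Tnfrsf10b.

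Across conditions the ligands were NK transcripts in culture, and the receptors differed between the cell types. Levels of different genes are compared as TPM, which scales counts by exon length and then to a common total. In cultured NK cells Fasl was the most abundant ligand at 275 ± 23.2 TPM (SD, n = 4). Ltb followed at 158 ± 17.1, Tnfsf10 at 48.0 ± 6.82, Tnf at 33.6 ± 6.99 and Lta at 14.9 ± 1.36 TPM. Of these neighbours in the order, Tnfsf10 and Tnf overlapped in range and the others did not. Fresh NK cells had the same order at lower levels, from 155 ± 28.0 TPM for Fasl to 2.66 ± 0.548 for Lta, again with overlap between Tnfsf10 (8.78 ± 1.31) and Tnf (6.91 ± 1.22). Both libraries of cultured Panc02 had 0 counts of Tnfsf10, Tnf, Lta and Ltb, and Fasl had 0 and 2 counts.

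On the receptor side, cultured Panc02 had Tnfrsf1a at 92.7 ± 5.85 TPM (SD, n = 2), Tnfrsf10b at 43.2 ± 3.87, Tnfrsf1b at 26.7 ± 2.09 and Fas at 0.832 ± 0.193, with no overlap between neighbours. Panc02 libraries thus held 41.7 and 66.0 times as much Tnfrsf10b as Fas transcript. The order in cultured NK cells was different, with Tnfrsf1b highest at 290 ± 26.4 TPM (n = 4), then Tnfrsf1a at 80.9 ± 5.07, Fas at 5.62 ± 1.14 and Tnfrsf10b at 2.14 ± 0.443. The ratio of Tnfrsf1b to Tnfrsf1a transcripts was 2.03 to 2.43 in fresh NK libraries, 3.35 to 3.67 in cultured NK libraries and 0.285 to 0.291 in Panc02. Its ranges in the 3 conditions did not overlap.

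**Figure D1:**
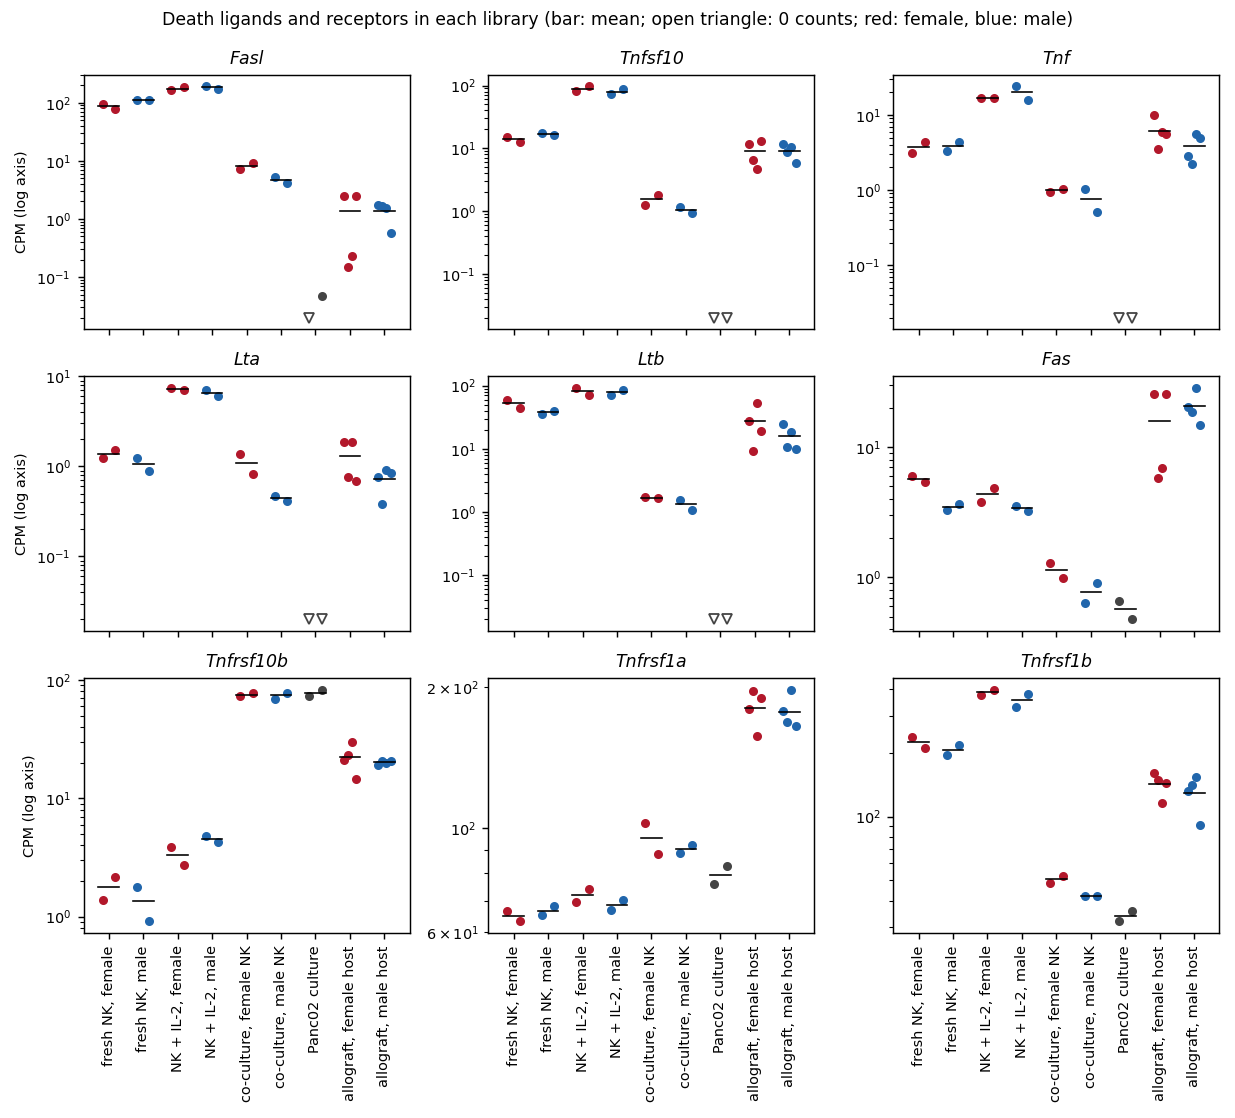
Level of each of the 9 genes in each library, as CPM on log axes with a different range in each panel. Points are libraries, horizontal bars are group means where no library was at 0, and open triangles mark 0 counts, drawn at the bottom of the panel. Tnfsf10, Tnf, Lta and Ltb are at 0 in both Panc02 libraries, and Tnfrsf10b is at 73.0 and 82.9 CPM there against 0.914 to 4.77 in NK libraries.

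Cultured NK cells and cultured Panc02 were compared directly in a fit that also held the fresh NK libraries (edgeR quasi-likelihood test with Benjamini-Hochberg adjustment over all genes). Of the 9 genes, 7 were higher in NK cells and 1 was lower. Over all genes tested, 71.1% were called, 38.1% higher and 32.9% lower, so a call by itself sets no gene apart. With 3 counts over the Panc02 group as the floor, NK levels were at least 2509-fold higher for Tnfsf10, 2387-fold for Ltb, 547-fold for Tnf and 205-fold for Lta. Fasl stood 7949 times above its 2 Panc02 counts, with an exact 95% Poisson interval of 2200 to 65640. Since both mates of most fragments were counted, the bounds are possibly too high.

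Fas, the receptor of Fas ligand, was at 3.83, 4.84, 3.55 and 3.26 CPM in cultured NK libraries and 0.662 and 0.475 in Panc02 (log2 fold change 2.83 ± 0.32 SE, adjusted p = 1.21e-06). Tnfrsf1b, the TNF receptor without a death domain, was at 330 to 399 CPM in NK cells against 31.9 and 35.7 (3.53 ± 0.10, adjusted p = 1.96e-13). The TRAIL receptor Tnfrsf10b went the other way, at 2.74 to 4.77 CPM against 73.0 and 82.9 (-4.28 ± 0.18, adjusted p = 1.75e-11). For Tnfrsf1a, the death-domain receptor of TNF, the difference was not called (-0.11 ± 0.07, 95% interval -0.27 to 0.06, adjusted p = 0.224). Scaling by library totals alone put it past the threshold (adjusted p = 0.0354).

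All 5 ligands rose in NK cells cultured with IL-2. Tnfsf10 was at 15.2, 12.5, 17.3 and 16.3 CPM in fresh libraries (female 1 and 2, male 4 and 5) and at 81.2, 97.8, 72.8 and 86.7 in culture. Lta went from 1.24, 1.54, 1.24 and 0.887 CPM to 7.45, 7.06, 7.04 and 6.12. Tnf went from 3.10, 4.30, 3.28 and 4.36 CPM to 16.8, 16.9, 24.2 and 16.0. Every cultured library was above every fresh one for these 3 genes. Lta rose by 2.63 ± 0.25 (log2 fold change ± SE, adjusted p = 1.94e-07), Tnfsf10 by 2.56 ± 0.11 (adjusted p = 8e-12) and Tnf by 2.41 ± 0.20 (adjusted p = 4.34e-08).

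Fasl and Ltb, the ligands already highest in fresh cells, changed less. Fasl was at 93.9 and 79.0 CPM in fresh female and 112 and 114 in fresh male libraries, and at 163, 184, 193 and 175 in culture. Ltb was at 59.9, 45.1, 35.9 and 39.8 CPM fresh and at 92.3, 72.5, 72.1 and 85.1 cultured. Neither gene overlapped between the conditions. Their log2 fold changes were 0.95 ± 0.09 for Fasl (adjusted p = 4.96e-07) and 0.94 ± 0.11 for Ltb (adjusted p = 3.6e-06), and the 95% intervals (0.77 to 1.14 and 0.71 to 1.17) lay wholly below those of Tnfsf10 (2.33 to 2.80), Lta (2.10 to 3.16) and Tnf (1.98 to 2.83). The difference between genes was not tested. B cells also make lymphotoxin beta: 5 B cell marker genes summed to 9.61 to 19.9 CPM in fresh and 1.27 to 5.09 in cultured libraries. Their part in the Ltb values was not tested. Of the T cell list, at least 5 of 7 genes were above 0 in each fresh library, with a sum of 9.09 to 20.3 CPM, against 3.21 to 8.48 in culture. Erythroid markers summed to 207 to 332 CPM fresh and 25.4 to 53.7 cultured, and dendritic cell markers to 38.2 to 46.4 and 8.62 to 10.5. The part of these cells in the members' values was not tested. Macrophages are a known source of TNF. Their 7 markers summed to 379 to 405 CPM in fresh and 797.2 to 995.1 in cultured libraries, of which Ccr2 made up 303 to 363 and 749 to 980. C1qa was at 0 in every cultured library, Mrc1, Adgre1 and Csf1r at or below 0.422 CPM, and Lyz2 at 4.10 to 41.4 against 18.8 to 70.6 CPM fresh.

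Among the receptors, Tnfrsf1b and Tnfrsf10b rose in culture and Fas was not called. Tnfrsf1b was at 238, 212, 195 and 218 CPM fresh and 375, 399, 330 and 379 cultured, without overlap (log2 fold change 0.88 ± 0.07 SE, adjusted p = 9.21e-09). Tnfrsf10b stayed low, at 1.38, 2.15, 1.78 and 0.914 CPM fresh and 3.90, 2.74, 4.77 and 4.29 cultured (1.49 ± 0.19, adjusted p = 8.32e-06). Over 42 genes restricted to Panc02, cultured NK libraries held 0% to 0.329% of the Panc02 level. At the Panc02 level of Tnfrsf10b that trace amounts to at most 0.256 CPM, and female library 1, at 3.90 CPM, had a trace of 0%. The epithelial gene Krt8 was at 1.75 to 7.69 CPM in cultured and 0 to 0.134 in fresh NK libraries. The part of Panc02 RNA in the Tnfrsf10b values was not tested. Fas was at 6.05, 5.37, 3.32 and 3.66 CPM fresh and 3.83, 4.84, 3.55 and 3.26 cultured (-0.11 ± 0.22, adjusted p = 0.744), and its ranges overlapped. Tnfrsf1a was at 63.3 to 68.1 CPM fresh and 66.9 to 74.2 cultured. These ranges overlapped, and its call (0.20 ± 0.06, adjusted p = 0.017) was lost under 9 of 18 alternatives. These were median-ratio scaling, DESeq2, no filter, library totals alone, and leaving out fresh female 1, fresh male 4, cultured female 1, cultured female 2 or cultured male 5. Over all 18 the adjusted p ran from 0.0168 to 0.307.

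In all, 8 of the 9 genes were called higher in cultured NK cells and 0 lower, beside 43.2% of all genes called, 22.1% higher and 21.1% lower. The median log2 fold change was 2.41 over the ligands and 0.54 over the receptors, beside 0.01 over all genes tested. Library totals alone as scaling lowered the share of higher among called genes from 51.2% to 39.8% and left all ligands higher.

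**Figure D2:**
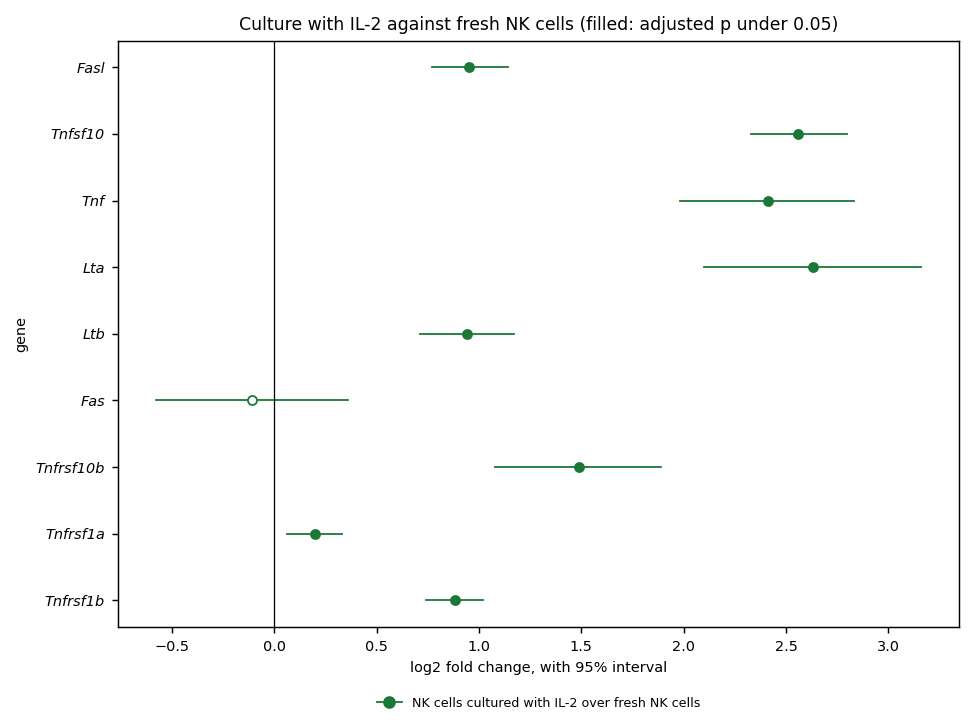
Log2 fold change of each gene in NK cells cultured with IL-2 over fresh NK cells, with its 95% interval, over 4 libraries each. Filled points passed the adjusted p threshold of 0.05. The 5 ligands lie between 0.94 and 2.63, and Fas is the gene whose interval includes 0.

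Other genes of the pathway moved in both directions in culture. Of 29 genes that carry or block the death receptor signal, 12 rose and 6 fell, with a median log2 fold change of 0.05. Over all genes tested, 22.1% rose and 21.1% fell, with a median of 0.01. The pro-apoptotic pore former Bax rose (1.14 ± 0.07 SE, adjusted p = 3.9e-10), and Ripk3, the necroptosis kinase, fell (-0.45 ± 0.13, adjusted p = 0.0104). Of 24 TNF target genes tested, 4 rose, among them the growth factor gene Csf2 (1.5 ± 0.26, adjusted p = 0.000153), and 9 fell. Of the other TNF superfamily ligands 3 of 9 rose and 3 fell. Tnfsf4, the ligand of OX40, rose (2.02 ± 0.27, adjusted p = 9.8e-06), whereas Tnfsf14, also called LIGHT, fell (-1.67 ± 0.12, adjusted p = 8.44e-09). Of the other receptors, 5 of 19 rose and 8 fell. The activation receptor gene Tnfrsf9 (4-1BB) rose (1.54 ± 0.08, adjusted p = 6.76e-11), and Ltbr, the receptor of the complex that Ltb forms, fell from 5.55 to 1.20 CPM (-2.17 ± 0.18, adjusted p = 8.19e-08).

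Co-culture libraries held mainly Panc02 RNA, so each level there is a sum over both cell types. All 5 ligands were higher than in cultured Panc02, where they were at or near 0. Fasl was at 7.11 and 9.19 CPM with female and 5.33 and 4.16 with male NK cells. Lta was at 1.36, 0.833, 0.466 and 0.416 CPM and Tnf at 0.936, 1.05, 1.02 and 0.504. Ltb was at 1.74, 1.65, 1.57 and 1.07 CPM and Tnfsf10 at 1.27, 1.80, 1.16 and 0.920. Against the floor of 3 counts over the Panc02 group, Ltb was at least 44.7-fold higher, Tnfsf10 38.2-fold, Tnf 26.0-fold and Lta 22.8-fold, and Fasl stood 287 times above its 2 Panc02 counts (95% Poisson interval 79.4 to 2368).

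Of the receptors in co-culture, Tnfrsf1b rose from 31.9 and 35.7 CPM in Panc02 alone to 48.5, 52.6, 42.2 and 41.8 (log2 fold change 0.50 ± 0.06 SE, adjusted p = 7.46e-06). Tnfrsf1a rose from 76.0 and 83.1 CPM to 103, 88.2, 88.6 and 91.8 (0.27 ± 0.06, adjusted p = 0.0015). Without Panc02 replicate 1 the Tnfrsf1a call was lost (adjusted p = 0.105). Tnfrsf10b, at 73.0, 77.8, 69.7 and 78.3 CPM, overlapped Panc02 alone, and its difference had a narrow interval around 0 (-0.01, 95% interval -0.13 to 0.12, adjusted p = 0.953). Fas, at 1.29, 0.983, 0.640 and 0.898 CPM, was not called (0.77 ± 0.39, 95% interval -0.04 to 1.58, adjusted p = 0.191), and 1 of its 4 libraries was within the Panc02 range. Of the 9 genes, 7 were called higher and 0 lower, beside 18.3% of all genes called, 12.2% higher and 6.12% lower. Over the 4 receptors the median log2 fold change was 0.38, beside 0.01 over all genes. With library totals alone, the share of higher among all called genes went from 66.5% to 46.7%.

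To set co-culture levels against what its separate cultures held, each gene's level in cultured NK cells of the same sex and in cultured Panc02 was mixed in the proportion of NK RNA of each library. That proportion was the median over 337 genes restricted to NK cells, members left out: 2.81% and 3.40% for the female and 2.05% and 1.74% for the male libraries. The observed level of Lta was 6.68, 3.38, 3.45 and 3.63 times the mixture (61, 39, 16 and 19 counts against 9.14, 11.5, 4.64 and 5.23). Tnf stood at 1.98, 1.83, 2.48 and 1.44 times and Fasl at 1.45, 1.55, 1.40 and 1.29 times. Tnfsf10, in contrast, was at 0.506, 0.590, 0.712 and 0.662 of the mixture and Ltb at 0.751, 0.588, 0.975 and 0.784. The ligands thus split into 3 above the mixture in all 4 libraries and 2 below it in all 4, although all 5 rose together in NK culture.

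The 337 NK-restricted genes had a mean of 20 CPM or more in both cultured NK groups. Lta, at a mean of 6.92 CPM in cultured NK cells, and Tnf, at 18.45, were lower. Their ratios are thus ranked against genes of higher level. Read against the 337 genes, Lta exceeded 97.6% to 98.8% of them in each library, Tnf 80.1% to 95.6% and Fasl 73.3% to 83.4%. Tnfsf10 exceeded 7.12% to 21.1%. Among these genes 29.7% were above the mixture in all 4 libraries, 27.0% were below it in all 4, and 10.1% were above 1.5 times in all 4, as Lta was. The direction for Fasl or Ltb is therefore one that many NK genes share. Which of both cell types held the Lta transcripts cannot be told apart in mixed RNA. Of the receptors, Tnfrsf10b stood at 0.912 to 1.03 times the mixture, Tnfrsf1b at 1.05 to 1.15 and Tnfrsf1a at 1.11 to 1.29. Fas was more variable, at 1.92, 1.41, 1.02 and 1.45 times. For Tnfrsf1b that mixture already includes the 330 to 399 CPM of cultured NK cells.

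**Figure D3:**
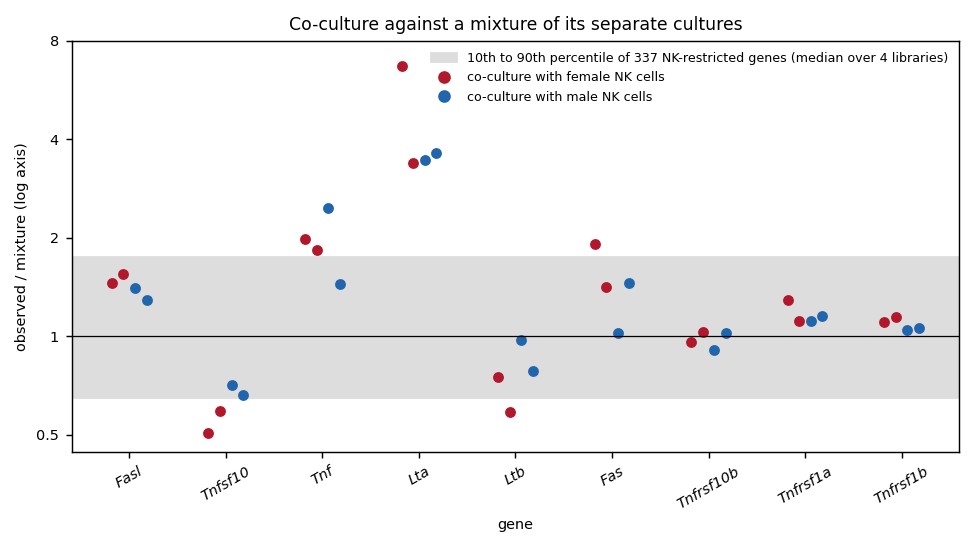
Observed level in each co-culture library divided by the level of a mixture of cultured NK cells and cultured Panc02, on a log axis. Red points are co-cultures with female and blue points with male NK cells, and the grey band spans the 10th to the 90th percentile, 0.650 to 1.75, of the median ratio of 337 NK-restricted genes. The genes of the band had a mean of 20 CPM or more in both cultured NK groups, and Lta had less. Lta lies above the band in all 4 libraries, and Tnfsf10 and Ltb lie below 1 in all 4.

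Downstream of the receptors, a list of TNF target genes was mostly higher in co-culture. Of 24 tested, 16 rose and 0 fell beside the 12.2% of all genes called higher, with a median log2 fold change of 0.42. All 16 were above the mixture in all 4 libraries, and 6 (37.5%) exceeded it by 1.5 times. Among the 2212 genes called higher, 68.1% and 12.8% did so. Irf1, an interferon and TNF induced transcription factor, rose from 22.01 to 136.1 CPM (2.62 ± 0.06 SE, adjusted p = 4.99e-17) and was 3.77 to 6.76 times the mixture. The adaptor Traf1 (1.96 ± 0.16, adjusted p = 7.19e-09), the neutrophil chemokine Cxcl2 (1.51 ± 0.18, adjusted p = 2.96e-06) and the NF-kappaB inhibitor Tnfaip3, also called A20 (1.32 ± 0.12, adjusted p = 3.48e-08), rose with it. Several of these genes also respond to other cytokines, and a source of the signal was not tested.

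Of the 29 death receptor signalling genes, 11 rose and 1 fell in co-culture, with a median of 0.12, and 0 of the 11 exceeded the mixture by 1.5 times in all 4 libraries. Over all genes tested, 12.2% rose and 6.12% fell. The survival gene Bcl2l1 fell slightly (-0.16 ± 0.04 SE, adjusted p = 0.0143). Of the other TNF receptors, 5 of 14 rose and 3 fell. Tnfrsf9 rose from 14.6 to 44.5 CPM (1.64 ± 0.07, adjusted p = 2.93e-13) and stood at 2.11 to 2.82 times the mixture. Tnfrsf22, a TRAIL decoy receptor of the mouse, fell slightly (-0.13 ± 0.04, adjusted p = 0.0272) and was at 0.873 to 0.933 of the mixture.

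Sex was then compared within each condition. In fresh NK cells, edgeR called 0 of the 9 genes between female and male donors (3 had an unadjusted p under 0.05, and DESeq2 called 1), beside 10% of all genes tested (4.42% higher and 5.61% lower in female cells). Of the 21414 genes tested, 5105 had an unadjusted p under 0.05, and DESeq2 called 2979 genes in all. Fasl came nearest, with both female libraries (93.9 and 79.0 CPM) below both male ones (112 and 114), at a log2 fold change of -0.40 ± 0.12 (SE, adjusted p = 0.06). It passed the threshold under 7 of 17 alternatives: DESeq2, no filter, a fit of only the groups compared, and leaving out cultured or co-cultured female library 1 or 2. Over the 17 the adjusted p ran from 0.000136 to 0.260. Ltb was higher in both female libraries (59.9 and 45.1 against 35.9 and 39.8 CPM, 0.47 ± 0.15, adjusted p = 0.0704), and passed in 1 of 17, without fresh female replicate 2. In the fresh female libraries, T cell markers stood at 16.7 to 20.3 CPM against 9.09 to 10.3 in male ones, and neutrophil markers at 16.1 to 42.8 against 109 to 283. Their part in either value was not tested. Fas was at 6.05 and 5.37 CPM in female and 3.32 and 3.66 in male cells, again without overlap (0.70 ± 0.31, adjusted p = 0.188). Tnfsf10, lower in female cells, and Lta, higher, did not overlap either, while Tnf, Tnfrsf10b, Tnfrsf1a and Tnfrsf1b did. The share of all genes without overlap is not given here, so separation of 2 from 2 libraries sets no gene apart.

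After culture with IL-2, edgeR and DESeq2 each called 0 of the 9 genes between the sexes (1 had an unadjusted p under 0.05), beside 0.107% of all genes (0.056% higher and 0.0514% lower in female cells). The 95% interval for Fasl was -0.38 to 0.15, for Tnfsf10 -0.16 to 0.44 and for Tnf -0.83 to 0.26, so differences of those sizes are not excluded. Tnfrsf10b, at 3.90 and 2.74 CPM in female and 4.77 and 4.29 in male cells, had an interval of -1.03 to -0.06 before adjustment and was not called. The response to culture itself was compared between the sexes by an interaction term, which edgeR and DESeq2 each called for 0 of 9 genes (1 at an unadjusted p under 0.05), beside 2.55% of all. The largest term was that of Tnfrsf10b (-0.87 ± 0.39, adjusted p = 0.275). Ltb followed (-0.43 ± 0.21, adjusted p = 0.336), and Tnfsf10 had a positive term (0.41 ± 0.21, adjusted p = 0.358). At an unadjusted p under 0.05, 3548 of all genes passed the interaction and 1468 the comparison of cultured cells.

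In co-culture, edgeR and DESeq2 each called 0 of the 9 genes between female and male NK cells (3 had an unadjusted p under 0.05), beside 1.14% of all genes called, with 0.985% of all genes higher with female cells. Of the 18172 genes tested, 2119 had an unadjusted p under 0.05. Fasl (7.11 and 9.19 against 5.33 and 4.16 CPM) and Lta (1.36 and 0.833 against 0.466 and 0.416 CPM) had both female libraries above both male ones. Their log2 fold changes were 0.76 ± 0.22 (SE, adjusted p = 0.12) and 1.28 ± 0.57 (adjusted p = 0.382). Tnfsf10, Ltb, Fas and Tnfrsf1b were likewise higher in both female libraries than in both male ones. The NK RNA share was also higher in the female libraries, 2.81% and 3.40% against 2.05% and 1.74%. Relative to the mixture, which takes up that share, Fasl stood at 1.45 and 1.55 with female and 1.40 and 1.29 with male cells. Lta stood at 6.68 and 3.38 with female and 3.45 and 3.63 with male cells, so that its ranges overlapped on this scale. Without a filter on low counts, Fasl (adjusted p = 0.0152) and Tnfrsf1b (adjusted p = 0.0482) passed. Among pathway genes, Irf1 was higher with female NK cells (173 against 98.8 CPM, 0.78 ± 0.06, adjusted p = 2.39e-07), as were Tnfrsf9 (0.47 ± 0.07, adjusted p = 0.00122) and Rbck1, a subunit of the linear ubiquitin ligase of the TNF receptor complex (0.31 ± 0.06, adjusted p = 0.00531). They were the only genes called of 24 TNF targets, 14 other TNF receptors and 29 death receptor signalling genes, in that order.

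**Figure D4:**
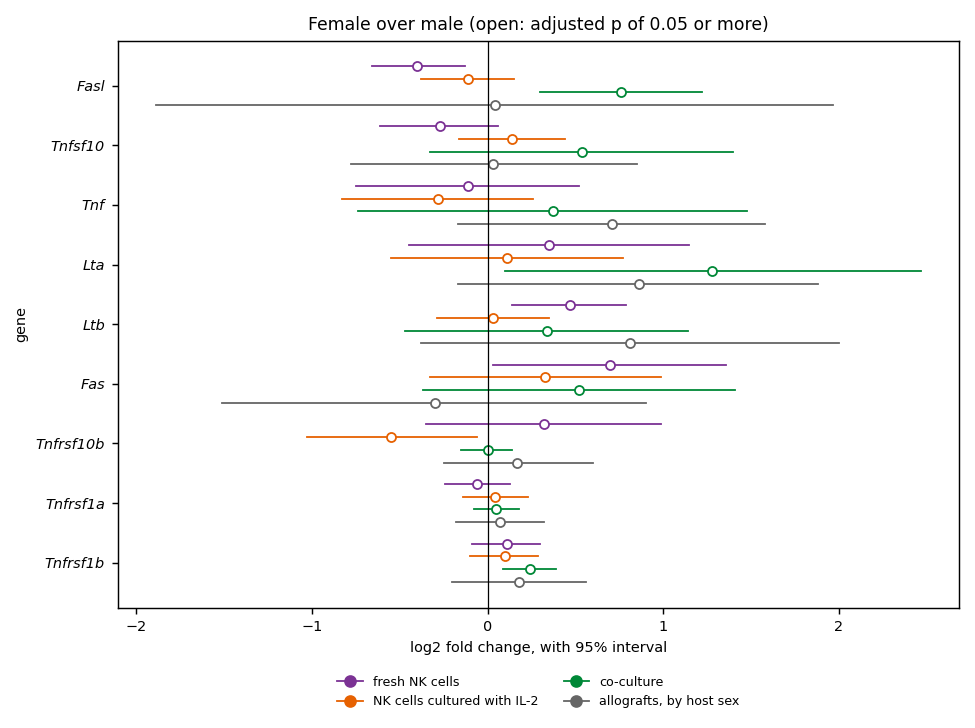
Log2 fold change of female over male for each gene in fresh NK cells, NK cells cultured with IL-2, co-cultures and allografts, with 95% intervals not adjusted for the number of genes. Open points did not pass the adjusted p threshold of 0.05, and no point is filled. The widest interval is that of Fasl in allografts, from -1.89 to 1.97.

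Allografts held all 5 ligands and had a receptor profile unlike that of cultured Panc02. Their counts were deposited apart from those of all other libraries, so tumour growth and that division cannot be told apart. Of the 9 genes, 8 were higher in allografts and 1, Tnfrsf10b, was lower, beside 62.1% of all genes called, 38.8% higher and 23.3% lower. Fas was at 25.8, 5.80, 6.89 and 25.7 CPM in female hosts and at 20.5, 18.6, 28.6 and 14.8 in male hosts, all above the 0.662 and 0.475 of culture (log2 fold change 5.06 ± 0.81 SE, adjusted p = 0.000476). Tnfrsf1a, at 157 to 198 CPM, was above both cultured libraries in every tumour (1.24 ± 0.13, adjusted p = 1.4e-05), and so was Tnfrsf1b, at 91.3 to 160 CPM (2.07 ± 0.21, adjusted p = 1.11e-05). Over the 4 receptors the median log2 fold change was 1.65, beside 0.42 over all genes. Host cell transcripts were present in these tumours, where 7 macrophage markers summed to 2713 to 5623 CPM in allografts and 16.1 to 16.6 in cultured Panc02. The 4 fibroblast markers summed to 4535 to 14630 and to 0.902 to 0.982 CPM. Their part in the receptor values was not tested.

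Tnfrsf10b, the TRAIL receptor, stood at 21.1, 23.1, 29.9 and 14.5 CPM in female hosts and 19.2, 20.7, 19.9 and 20.6 in male hosts, all below 73.0 and 82.9 in culture. It fell by 1.82 on the log2 scale (SE 0.17, adjusted p = 6.22e-06). The tumours held 18.6% to 38.3% of the mean cultured level of Tnfrsf10b, and 21.9% to 54.8% of that of the epithelial marker list. Per 1000 CPM of those markers, Tnfrsf10b was at 26.1 and 29.3 CPM in culture and at 13.4 to 18.3 in 6 tumours. The other two, female 2 and 3, stood at 37.7 and 25.9. The TRAIL decoy receptor genes Tnfrsf22 (-2.28 ± 0.17, adjusted p = 1.53e-06) and Tnfrsf23 (-1.76 ± 0.14, adjusted p = 2.36e-06) also fell, 2 of the 3 that fell among 23 other TNF receptors, while 16 rose. Over all genes tested, 38.8% rose and 23.3% fell.

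Among the ligands, Ltb was the most abundant in tumours at 33.5 ± 19.7 TPM (SD, n = 8), followed by Tnf at 7.31 ± 3.06, Tnfsf10 at 4.22 ± 1.55, and Fasl and Lta at 1.72 ± 1.191 and 1.72 ± 0.812. In TPM the ranges of Tnf, Tnfsf10, Fasl and Lta overlapped from each to the next, and that of Ltb lay above that of Tnf. The order differed from NK cells, where Fasl led: Fasl was 1.23 to 2.44 times Ltb in fresh NK libraries and 0.00343 to 0.122 times in tumours. Against the Panc02 floor, Ltb was at least 640-fold higher, Tnfsf10 at least 270-fold (270.5), Tnf 150-fold (149.6) and Lta 29.9-fold. Fasl was 60.6 times its 2 Panc02 counts (95% Poisson interval 16.8 to 501), and its call (adjusted p = 0.00984) was lost without Panc02 replicate 1 (adjusted p = 0.0878).

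The tumours differed widely in some members. Fasl spanned a 17.3-fold range, from 0.146 CPM in female 2 to 2.53 in female 4. Female 2, female 3 and male 8 were the 3 lowest tumours for Fasl (0.146, 0.230 and 0.563 CPM, with the next at 1.54), for Fas (5.80, 6.89 and 14.8, next 18.6) and for Tnfsf10 (6.45, 4.59 and 5.78, next 8.75). The NK marker sum was lowest in the same 3 tumours, at 7.89, 7.42 and 10.4 CPM, against 19.2 to 32.3 in the others. T cell markers summed to 57.3, 94.6 and 68.3 CPM in these 3 and 71.2 to 149 in the others, with overlap. Of the NK list, Klrd1 and Prf1 reached 11.6 and 12.3 CPM in allografts, and no other gene was above 3.13. The part of either cell type in these levels was not tested. Ltb was also lowest in female 2 and male 8, at 9.35 and 10.0 CPM, with male 6 next at 10.5. Unlike those genes, Ltb was highest in female 3 at 52.4 CPM, against 9.35 to 27.9 in the other 7. B cell markers summed to 268 CPM in female 3 and to 7.28 to 19.0 elsewhere. Tnfrsf1a varied least, by 1.26-fold between the lowest and the highest tumour.

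**Figure D5:**
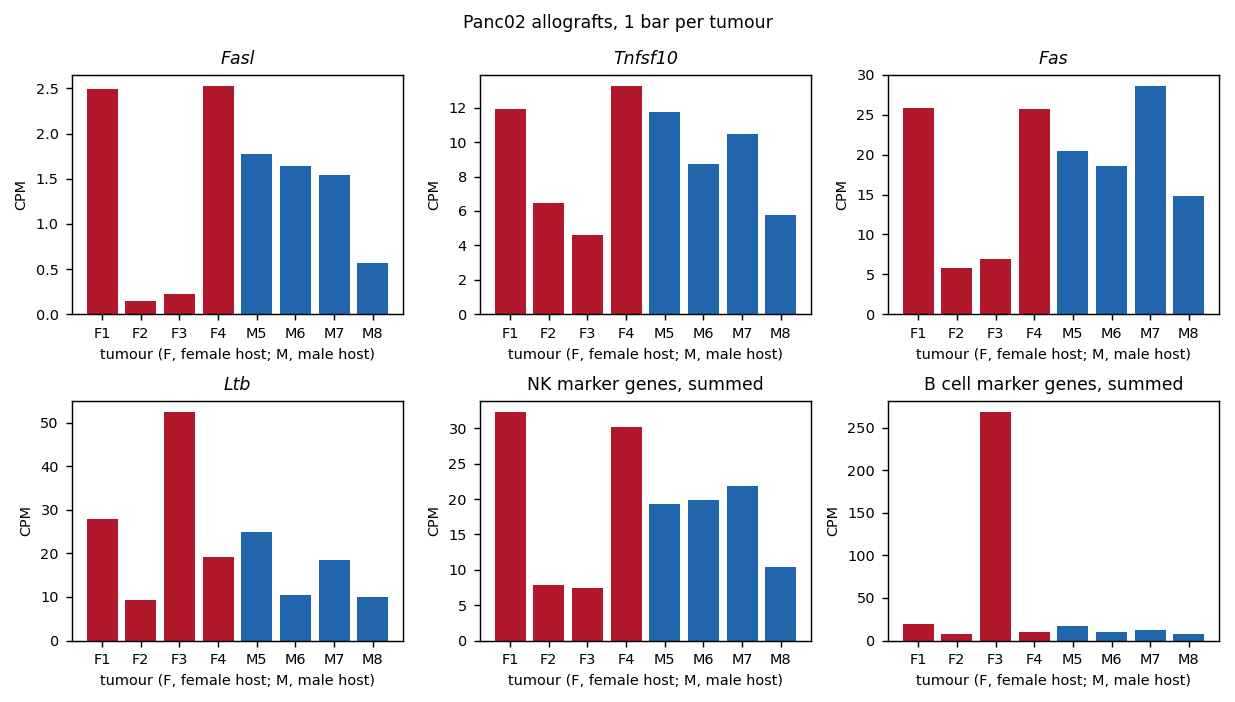
CPM of Fasl, Tnfsf10, Fas and Ltb and summed CPM of the NK and B cell marker lists in each of 8 allografts, 1 bar per tumour (red, female host; blue, male host). Fasl, Tnfsf10, Fas and the NK markers are lowest in F2, F3 and M8, and Ltb and the B cell markers are highest in F3.

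Between allografts of female and male hosts, edgeR and DESeq2 each called 0 of the 9 genes (0 at an unadjusted p under 0.05), beside 0.0146% of all genes (3087 of all genes had an unadjusted p under 0.05), and the ranges of every member overlapped. Tnf was at 9.82, 3.56, 5.85 and 5.53 CPM in female and 2.83, 2.23, 5.65 and 4.88 in male hosts (log2 fold change 0.71 ± 0.39 SE, adjusted p = 0.419). Lta (0.86 ± 0.46, adjusted p = 0.4) and Ltb (0.81 ± 0.52, adjusted p = 0.483) had positive differences of like size. Intervals were wide, -1.89 to 1.97 for Fasl and -1.51 to 0.90 for Fas, so that differences of these sizes are not excluded.

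TNF target genes in allografts rose for 17 of 29 and fell for 5 relative to culture (median 1.93, beside 0.42 over all genes), and death receptor signalling genes rose for 10 and fell for 6 of 29 (median 0.10). Over all genes tested the shares were 38.8% higher and 23.3% lower. Birc3, an inhibitor of apoptosis protein induced by NF-kappaB, rose (8.02 ± 0.45 SE, adjusted p = 2.34e-07) and so did Ripk3 (2.74 ± 0.28, adjusted p = 1.13e-05), whereas the prostaglandin synthase gene Ptgs2 (-3.78 ± 0.35, adjusted p = 1.42e-05) fell.

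The genes whose level most resembled that of each member were taken by Pearson's r of log2(CPM + 0.5) over the 9 group means, among 12023 genes. As points share libraries and cell types, r is a description only. Fasl was most like Txk (r = 0.995), Ifng and Klri2, Tnfsf10 most like Rora (0.994), and Tnf most like Lpxn (0.992). Bhlhe40 was among the nearest 3 genes of both Tnfsf10 and Tnf. Lta had the least close neighbours, P2ry14 (0.982), Socs1 (0.969) and Tgfb1 (0.963), and Ltb was closest to Mvb12b (0.998). On the receptor side Fas was nearest to Rnf135 (0.992), Tnfrsf10b to Nptx1 (0.997), Tnfrsf1a to Zfp608 (0.994) and Tnfrsf1b to Ostf1 (0.997), with Traf5, an adaptor of TNF receptors, next for Tnfrsf1b (0.996).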

How the data were processed

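The authors deposited unnormalised whole-number counts per gene for 22 libraries. The tools named in the submitters' processing notes are featureCounts 2.0.6, HISAT2 2.2.1, cutadapt 4.4 and SAMtools 1.19.2, with the build GRCm39. Counting ran over exons of Ensembl release 113 genes, per the file headers, with strand setting 2, each mate separately and multi-mapping reads included, so counting error exceeds what counts imply. CPM and TPM were computed from these counts. Tests used edgeR 4.0.16 (quasi-likelihood, robust, TMM, filterByExpr) in R 4.3.3 on all genes, with Benjamini-Hochberg adjustment at 0.05. The 12 NK and co-culture libraries shared 1 fit. Other fits held co-cultures with Panc02, allografts alone, allografts with Panc02, and fresh and cultured NK cells with Panc02. The script was tested on simulated counts. Alternatives were median-ratio scaling, DESeq2 1.42.0, no filter, each library left out, only the groups compared, the replicate number as a block and, added after seeing the data, library totals alone. All 9 members were tested in every comparison, but for the comparisons by sex and the interaction the text names only some of them. From each list up to 4 called genes of largest change at 5 CPM or more and up to 2 against the majority were eligible. Members and lists were chosen with earlier results of these data known. Some list genes that the rule made eligible are not reported here.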

Additional observations from a re-analysis of the deposited data

How the results depend on the processing

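No called member changed direction under any alternative run. For fresh NK cells of both sexes, DESeq2, no filter and a fit of only the groups compared each called 1 member (Fasl), and leaving out libraries gave 0 to 1. In co-culture by sex no filter called 2. Leave-outs gave 7 to 8 members for culture against fresh, 6 to 7 for co-culture and 8 to 9 for allografts against Panc02. Over all genes, sex in fresh cells gave 2149 calls, 1340 with only the groups compared and 569 (without fresh female 1) to 3421 (without cultured female 2) with a library left out. For cultured cells by sex there were 23 calls, 77 by DESeq2, 207 without filter, 12 with only the groups compared and 17 to 71 (without cultured female 1) on leaving out libraries. The interaction gave 546 calls, 1487 by DESeq2, 323 with only the groups compared and 180 (without fresh male 5) to 935 (without fresh female 2) on leaving out libraries, and the higher share went from 39.4% to 61.1% with median-ratio scaling. Co-culture by sex gave 207, 422 without filter and 97 (without male co-culture 5) to 215 on leaving out libraries, co-culture against Panc02 3325, and 1527 (without Panc02 1) to 3530, with 1934 without Panc02 2, and allografts by sex 3, 678 by DESeq2, 14 without filter and 0 (without male 5, 6 or 8) to 4. The causes were not tested. Without a filter the median of all genes between fresh female and male cells was -0.113. Same-numbered NK samples deviated together in males (r = 0.322, fresh and cultured) but hardly in females (0.0406), so the numbers were not taken to pair them. With the replicate block, 338 genes were called for the interaction and 8614 (4381 higher, 4233 lower) against 9255 without it for culture, and no member's call changed. Raising the minimum level of NK-restricted genes from 20 to 50 CPM left each ratio to the mixture nearly as it was (Lta at 6.64 against 6.68 in female 1). Depth limits Lta in co-culture, at 16 to 61 counts per library, and Fasl in allografts, at 6 to 100 counts.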

Other observations

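Among the TNF superfamily ligands outside the member set, 2 stood well above the mixture in co-culture and are named here after their values were seen. Tnfsf14 (LIGHT), which binds Ltbr like the complex of lymphotoxin alpha and beta, was at 1.09 and 1.75 CPM with female and 0.990 and 1.05 with male NK cells, 2.68 to 3.55 times the mixture. It had fallen in culture with IL-2, from 48.8 to 58.6 CPM in fresh to 12.3 to 18.8 in cultured NK libraries, and was at 0 in Panc02. Tnfsf11 (RANKL), the osteoclast differentiation ligand, had 35, 10, 18 and 6 counts in co-culture, 8.89 to 46.2 times the mixture. Its level in cultured NK cells rested on 1, 41, 61 and 16 counts, so the ratio is imprecise. In allografts Tnfsf11 was at 1.24 to 5.79 CPM in all 8 tumours.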
